A study of Mus musculus with 24 samples.

Results

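10 genes of the PPAR system were followed in kidneys with and without Pex5 deletion in the renal tubule. They were the receptors Ppara, Ppard and Pparg, their DNA-binding partner Rxra, the coactivator Ppargc1a and the lipid genes Angptl4, Plin2, Cd36, Creb3l3 and Mogat1, taken by symbol as 10 of the 55335 genes listed for every kidney. All 10 had reads in each of the 24 kidneys and all 10 were tested. RNA came from whole kidneys of C57BL/6J mice with 6 male controls (Ctrlm), 6 male knockouts (cKOm), 6 female controls (Ctrlf) and 6 female knockouts (cKOf). Controls were Pex5lox/lox littermates, and knockouts were Pex5lox/lox mice that also carried Pax8-rtTA and LC1, which drive deletion in tubule cells upon doxycycline (DOX). All groups were given DOX from 8 weeks of age for 2 weeks. Collection followed at 14 weeks of age, 4 weeks past the last DOX, at ZT9 (9 hours after light on) according to the extraction notes, whereas the growth notes and the study's methods place experiments at ZT3. Deletion was therefore confined by design to the tubule, whereas RNA was read from all cells of the organ.

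PPARs are nuclear receptors that are activated by fatty acids and their derivatives. They bind DNA together with a retinoid X receptor at direct repeats of a short half-site spaced by 1 base, and release corepressors for coactivators when a ligand is bound. PPARα drives mitochondrial, peroxisomal and microsomal fatty acid oxidation in the proximal tubule and liver, PPARδ is expressed in most tissues, and PPARγ is the receptor of adipocytes. PEX5 imports enzymes into the peroxisome, where part of the fatty acids that act on these receptors is degraded.

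Depth was 19376152 to 28470831 reads counted on genes per kidney, with a median of 21592602. Pex5, the targeted gene, was 54.3 ± 4.63 CPM in Ctrlm and 43.7 ± 1.94 CPM in cKOm (SD, n = 6 each; CPM are reads per 1000000 counted reads, with libraries scaled by the TMM method), and 50.3 ± 6.97 in Ctrlf and 43.6 ± 3.55 in cKOf. Its fall passed the threshold in males (log2 fold change -0.31, edgeR quasi-likelihood adjusted p = 0.0219), a call lost in 4 of 38 alternatives. It missed the threshold in females (log2 fold change -0.21, edgeR adjusted p = 0.177). Reads were counted per gene over all cells, so these values do not measure how complete the deletion was. The study reported lower Pex5 mRNA in both sexes, with some full-length mRNA left in cKOf. It found almost no PEX5 protein in cKOm and a much lower level in cKOf. By electron microscopy it saw hardly any peroxisomes in proximal tubules of either knockout. Some kidneys stood apart in ways the groups do not name. An index of long transcripts (the median deviation of the 10% longest coding genes minus that of the 10% shortest, in log2 units) was -0.645 in Ctrlm 5, -0.417 in Ctrlf 4 and -0.780 in cKOf 6, and between -0.12 and 0.31 in the other 21. The summed level of 12 hepatocyte genes was 500 to 1009 CPM in Ctrlm 1 to 4 and 519 CPM in cKOm 4, against 61.9 to 195 CPM elsewhere. The median of this sum was 704 CPM in Ctrlm and 124 CPM in cKOm. Of the 12 genes 4 were lower in cKOm past the threshold, against 4.9% of all tested genes, at a median log2 fold change of -1.90. In males, fits with a hepatocyte score as a covariate therefore cannot tell its part from that of the deletion. Ctrlf 6 had the highest sum of 7 adipocyte genes (233 CPM), followed by cKOm 1 (73.5 CPM), and Ctrlf 1 the highest sum of 8 interferon-induced genes (453 CPM). Proximal tubule markers summed to 13930 to 16246 CPM in Ctrlm and 11694 to 12753 CPM in cKOm, with 5 of 10 genes lower past the threshold, and to overlapping ranges in the 2 female groups. In whole kidneys, fewer cells of a type and less RNA per cell cannot be told apart.

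Of the 10 genes, 4 passed the threshold in males (edgeR adjusted p under 0.05), with Angptl4 and Plin2 higher and Cd36 and Mogat1 lower in cKOm, where 9.05% of the 16092 tested genes passed, 4.14% higher and 4.9% lower. Angptl4 was the 1 member whose male groups did not overlap, with all cKOm kidneys higher, as 3.69% of all tested genes were. In females 3 passed, Angptl4, Creb3l3 and Mogat1, all higher in cKOf, against 0.851% of all tested genes in either direction and 0.391% higher. Creb3l3 was the 1 member whose female groups did not overlap, with cKOf higher, against 0.267% of all tested genes. Angptl4 alone was higher past the threshold in both sexes, as were 0.267% of all tested genes, and Mogat1 was called in opposite directions, against 0.0124%. None of the 3 receptors, Rxra or Ppargc1a passed in either sex with edgeR, limma-voom or DESeq2. At an unadjusted p under 0.05 in edgeR, 2 of these 5 passed in males (Ppara higher, Rxra lower) and 0 in females. Of all 16092 tested genes, 4039 passed at that level in males and 1083 in females. The median log2 fold change over the 10 genes was -0.15 in males and 0.07 in females, beside 0.01 and 0.00 over all tested genes.

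**Figure D1:**
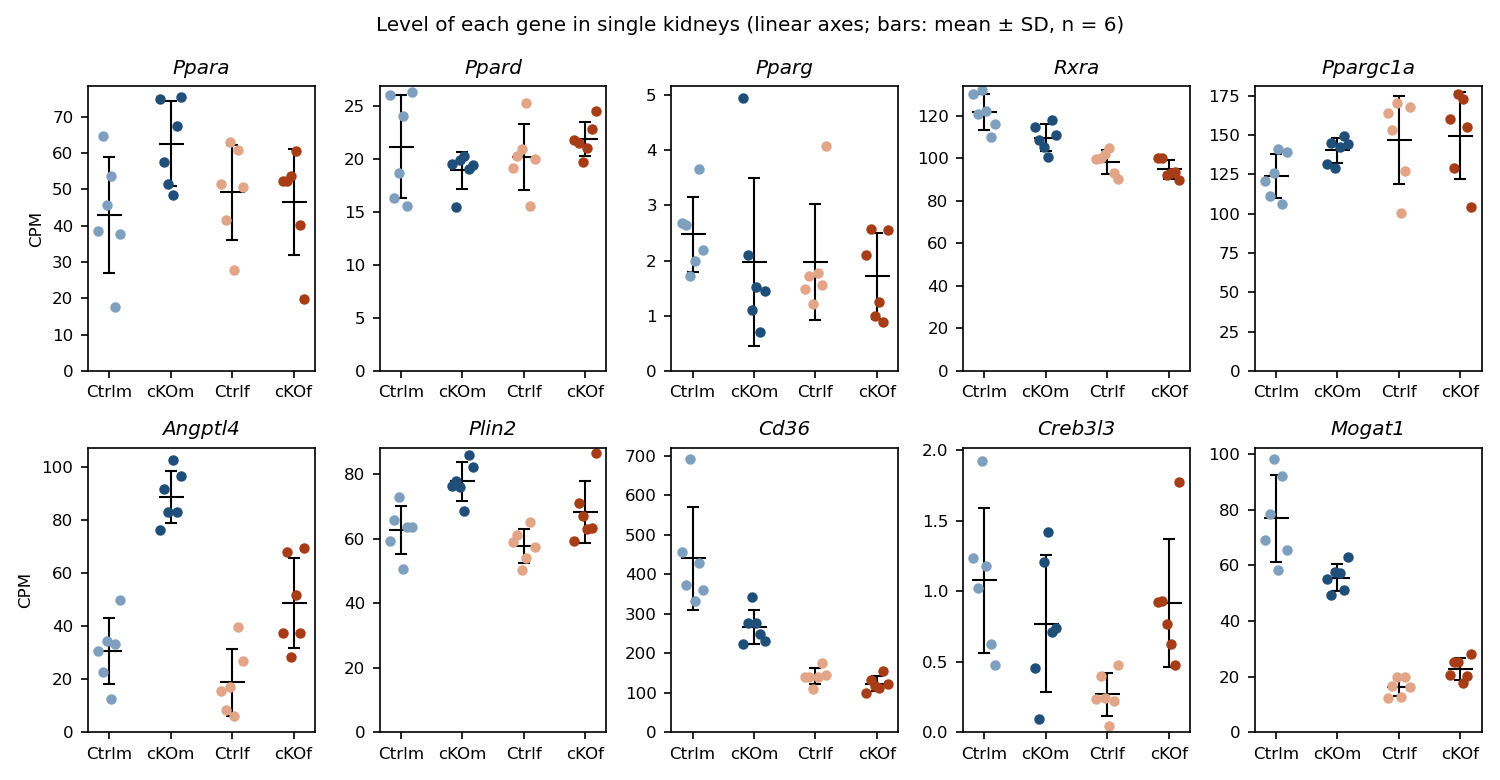
CPM (linear axes from 0) of each of the 10 genes in single kidneys of Ctrlm, cKOm, Ctrlf and cKOf. Dots are kidneys and bars the mean ± SD (n = 6). Angptl4 in the 6 cKOm kidneys (76.1 to 103 CPM) lay above all Ctrlm kidneys (12.8 to 50.03 CPM), and Mogat1 was lower in all female than in all male kidneys.

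The receptors came first. Ppara, on chromosome 15 of GRCm38 (85734983 to 85802819), is the receptor whose targets fill the fatty acid oxidation pathways. It ranged from 17.7 to 64.7 CPM in Ctrlm (median 42.0), from 48.4 to 75.5 in cKOm (median 62.4), from 27.6 to 62.998 in Ctrlf (median 51.0) and from 19.7 to 60.5 in cKOf (median 52.3). The groups overlapped in both sexes. The log2 fold change was 0.54 in males (SE 0.24, edgeR adjusted p = 0.261) and -0.08 in females (adjusted p = 0.923), and neither the sexes' difference (adjusted p = 0.449) nor the level in Ctrlf against Ctrlm (adjusted p = 0.673) passed the threshold. The lowest Ppara kidney of Ctrlm, of Ctrlf and of cKOf was the kidney with the lowest long-transcript index of its group. With those 3 kidneys left out the male log2 fold change was 0.35 (adjusted p = 0.194), and with the index as a covariate it was 0.21 (adjusted p = 0.534). Both adjustments were chosen after seeing the data.

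Ppard, on chromosome 17 (28232700 to 28301474), varied little. Its medians were 21.4 (Ctrlm) and 19.5 (cKOm) CPM in males, and 20.1 (Ctrlf) and 21.7 (cKOf) CPM in females, within a range of 15.5 to 26.3 CPM over all kidneys. The groups overlapped in both sexes, with log2 fold changes of -0.16 in males (edgeR adjusted p = 0.606) and 0.12 in females (adjusted p = 0.732).

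Pparg, on chromosome 6 (115360951 to 115490399), was the least abundant receptor. It was 1.73 to 3.65 CPM in Ctrlm (median 2.41), 0.714 to 4.94 in cKOm (median 1.48), 1.21 to 4.07 in Ctrlf (median 1.64) and 0.878 to 2.57 in cKOf (median 1.68), from 16 to 108 counts per kidney. Its highest kidneys, cKOm 1 and Ctrlf 6, were also the highest in adipocyte markers, and the next was Ctrlm 5 (3.65 CPM), with an adipocyte sum of only 0.574 CPM. Neither fold change passed the threshold (log2 fold change -0.33 in males, edgeR adjusted p = 0.759, and -0.19 in females, adjusted p = 0.877). The female value was 0.15 without Ctrlf 6. The part of adipocytes in these values was not tested.

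Rxra, on chromosome 2 (27676440 to 27762957), was more abundant and less variable. It was 110 to 132 CPM in Ctrlm (median 121), 101 to 118 in cKOm (median 110), 90.2 to 105 in Ctrlf (median 100.1) and 89.9 to 100.2 in cKOf (median 93.2). Every Ctrlf kidney lay below every Ctrlm kidney. The sex difference was called (log2 fold change -0.31, SE 0.06, edgeR adjusted p = 0.000736, two-sided exact permutation p = 0.00216, the smallest that 6 against 6 allow), whereas the change with deletion was not (log2 fold change -0.15 in males, adjusted p = 0.208, and -0.05 in females, adjusted p = 0.761). Without the 3 kidneys with few long transcripts the male change passed (log2 fold change -0.20, adjusted p = 0.0302).

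Ppargc1a encodes PGC-1α, the coactivator of mitochondrial biogenesis, and lies on chromosome 5 (51454250 to 51567726). It was 106 to 141 CPM in Ctrlm (median 123), 129 to 149 in cKOm (median 143), 100.2 to 170 in Ctrlf (median 159) and 104 to 176 in cKOf (median 158). The ranges overlapped in both sexes, and the lowest kidneys of Ctrlm, Ctrlf and cKOf were again those with the lowest long-transcript index. The log2 fold change was 0.18 in males (edgeR adjusted p = 0.533) and 0.02 in females (adjusted p = 0.958).

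**Figure D2:**
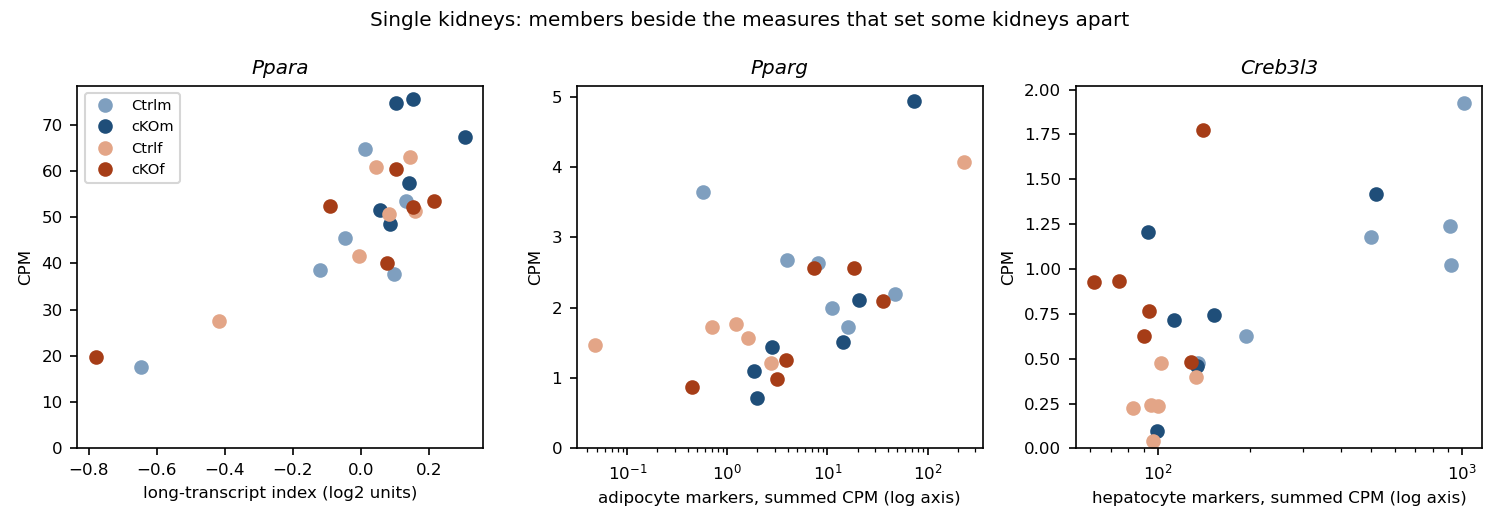
Ppara against the long-transcript index, Pparg against the summed CPM of adipocyte markers and Creb3l3 against the summed CPM of hepatocyte markers (log x axes for both sums), 1 dot per kidney coloured by group. The 3 kidneys at index -0.417 and below had 17.7 to 27.6 CPM of Ppara, and the 5 kidneys with 500 CPM or more of hepatocyte markers had 1.02 to 1.93 CPM of Creb3l3.

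Angptl4 was the member with the largest called change in males. It encodes a secreted inhibitor of lipoprotein lipase and is a classical target of all PPARs. On chromosome 17 (33773750 to 33781830), it was 12.8 to 50.03 CPM in Ctrlm (median 32.0) and 76.1 to 103 in cKOm (median 87.4), so that the groups were apart. In females it was 6.08 to 39.8 CPM in Ctrlf (median 16.3) and 28.5 to 69.5 in cKOf (median 44.6), and the groups overlapped, with 3 cKOf kidneys above all Ctrlf kidneys. The log2 fold change was 1.54 in males (SE 0.33, 95% interval 0.87 to 2.20, edgeR adjusted p = 0.00346) and 1.36 in females (SE 0.33, interval 0.68 to 2.03, adjusted p = 0.0113), and their difference was 0.18 with an interval of -0.75 to 1.11 (adjusted p = 0.902). The male call was lost once in 38 alternatives, with the 5 kidneys of high hepatocyte markers left out (log2 fold change 1.01, adjusted p = 0.370, with 2 Ctrlm kidneys remaining). The female call was lost without the 3 kidneys with few long transcripts (1.03, adjusted p = 0.0641) and with adjustment within each sex (adjusted p = 0.0925).

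Plin2, on chromosome 4 (86648386 to 86670060), encodes the protein that coats lipid droplets. It was 50.6 to 72.9 CPM in Ctrlm (median 63.7), 68.4 to 85.9 in cKOm (median 77.1), 50.2 to 65.2 in Ctrlf (median 58.1) and 59.4 to 86.4 in cKOf (median 65.1). In males 5 of 6 cKOm kidneys lay above every Ctrlm kidney, and in females 3 of 6 cKOf kidneys lay above every Ctrlf kidney. The rise passed narrowly in males (log2 fold change 0.31, SE 0.09, edgeR adjusted p = 0.0452, two-sided exact permutation p = 0.00433) and did not pass in females (0.24, adjusted p = 0.156). The male call was lost in 28 of 38 alternatives with values of 0.26 to 0.33 there, among them DESeq2 (adjusted p = 0.0538) and RLE normalization (adjusted p = 0.0789).

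Cd36, on chromosome 5 (17781690 to 17888801), encodes a fatty acid translocase that is also found on endothelium, macrophages and adipocytes. It was 333 to 692 CPM in Ctrlm (median 401), 225 to 343 in cKOm (median 262), 110 to 176 in Ctrlf (median 141) and 100.5 to 155 in cKOf (median 120). One cKOm kidney (343 CPM) lay above the lowest Ctrlm kidney (333 CPM), while females lay below males in every kidney. The fall in males was called (log2 fold change -0.72, SE 0.15, edgeR adjusted p = 0.00204) and the female value was not (-0.21, adjusted p = 0.550). The difference between the sexes did not pass (-0.52, adjusted p = 0.241). The male call was lost with the hepatocyte score as a covariate (-0.57, adjusted p = 0.106) and with the 5 kidneys of high hepatocyte markers left out (-0.62, adjusted p = 0.0670). None of 8 endothelial markers was called by edgeR in either sex, although 3 were lower in cKOm at an unadjusted p under 0.05 and DESeq2 called 1 lower. At that unadjusted level 4039 of the 16092 tested genes passed in males, in either direction. Endothelial markers summed to 501 to 620 CPM in Ctrlm and 494 to 530 CPM in cKOm. Of 8 macrophage markers 1 was called, lower in cKOm. Macrophage markers summed to 119 to 194 CPM in Ctrlm and to 88.1 to 129 CPM in cKOm. The part of these cells in the Cd36 values was not tested.

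Creb3l3, on chromosome 10 (81084324 to 81098874), encodes the hepatic transcription factor CREBH. It was close to the limit of detection, with 1 to 39 counts per kidney. It was 0.476 to 1.93 CPM in Ctrlm (median 1.10), 0.0957 to 1.42 in cKOm (median 0.728), 0.0431 to 0.477 in Ctrlf (median 0.240) and 0.479 to 1.77 in cKOf (median 0.845). Every cKOf kidney lay above every Ctrlf kidney, by as little as 0.479 against 0.477 CPM. The female rise passed the threshold (log2 fold change 1.74, SE 0.51, edgeR adjusted p = 0.0416) but was lost in 20 alternatives, among them without cKOf 6, the highest kidney, where the value was 1.45 (adjusted p = 0.105). In males the value was -0.48 (adjusted p = 0.701) and changed sign to 0.39 with the hepatocyte score as a covariate. The 5 kidneys richest in hepatocyte markers, all male, had 1.02 to 1.93 CPM of Creb3l3. However, cKOm 3, with the lowest hepatocyte sum of the males (92.5 CPM), had 1.21 CPM, and cKOf 6 (141 CPM) had 1.77. For Ctrlf against Ctrlm the log2 fold change was -1.98 (edgeR adjusted p = 0.00623). This sex difference was -0.68 with the hepatocyte covariate (adjusted p = 0.622) and -1.04 without the 5 hepatocyte-rich kidneys (adjusted p = 0.408). The part of hepatocyte RNA in it was not tested.

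Mogat1, on chromosome 1 (78510991 to 78538173), encodes an enzyme of triglyceride synthesis. It was 58.2 to 98.0 CPM in Ctrlm (median 73.7), 49.4 to 62.8 in cKOm (median 56.2), 12.3 to 19.97 in Ctrlf (median 16.5) and 17.9 to 28.0 in cKOf (median 22.8). Male and female kidneys did not overlap, whereas knockouts and controls overlapped slightly in each sex. Mogat1 fell in males (log2 fold change -0.47, SE 0.13, edgeR adjusted p = 0.0335) and rose in females (0.48, SE 0.14, adjusted p = 0.0346). The difference of these changes was -0.95 (SE 0.19, adjusted p = 0.00392, where 2.31% of all tested genes passed). It was called in all 36 alternatives in which it could be computed, whereas the male change alone was lost in 11 and the female change alone in 15.

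**Figure D3:**
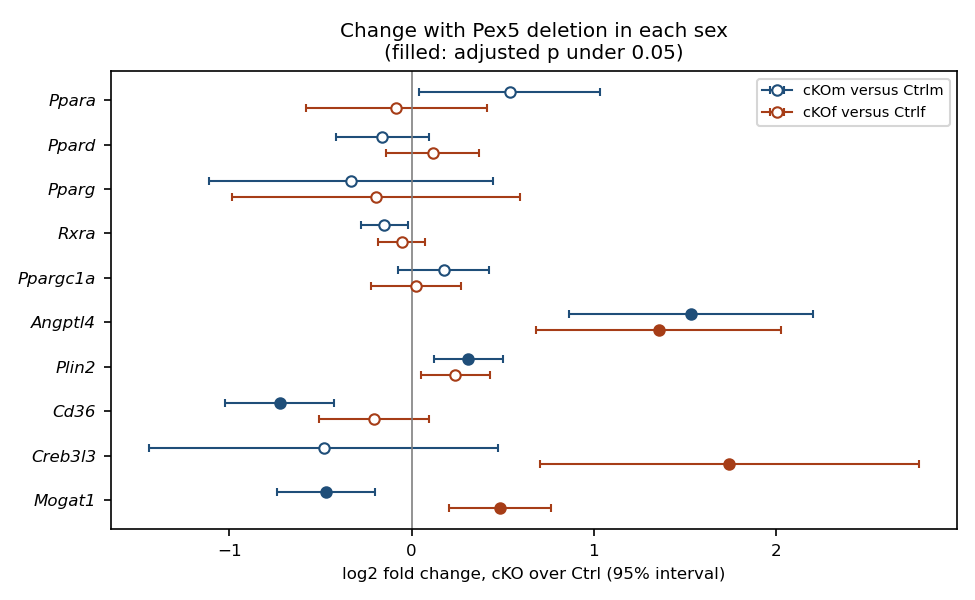
Log2 fold change of cKO over Ctrl with its 95% interval for each of the 10 genes, males in blue and females in orange. Filled symbols passed the edgeR threshold. Mogat1 is the member with filled symbols on opposite sides of 0 (-0.47 and 0.48).

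Without the deletion, 4 of the 10 genes were lower in Ctrlf than in Ctrlm and none was higher, where 16.8% of all tested genes were called, with 8.71% lower. They were Rxra, Cd36 (log2 fold change -1.63, SE 0.15, edgeR adjusted p = 3.59e-09), Creb3l3 and Mogat1 (-2.23, SE 0.14, adjusted p = 1.82e-12). For Rxra, Cd36 and Mogat1 every Ctrlf kidney was below every Ctrlm kidney, as for 3.95% of all tested genes. All 12 hepatocyte markers were also lower in Ctrlf past the threshold, with a median log2 fold change of -2.96. Without the 5 hepatocyte-rich kidneys the calls of Rxra (-0.22, adjusted p = 0.110) and Creb3l3 (-1.04, adjusted p = 0.408) were lost. Ppargc1a, not called here (0.25, adjusted p = 0.186), passed as higher in Ctrlf without Ctrlf 4 (0.32, adjusted p = 0.0422) or without the 3 kidneys with few long transcripts (0.28, adjusted p = 0.0241). Angptl4 passed as lower without Ctrlf 5 (-1.07, adjusted p = 0.0166). Per kb of exon, the order in Ctrlm was Cd36 (123 ± 36.5 CPM per kb), Mogat1 (49.3 ± 9.98), Rxra (22.3 ± 1.54), Ppargc1a (18.8 ± 2.16), Plin2 (17.8 ± 2.11), Ppara (11.2 ± 4.17), Angptl4 (8.65 ± 3.53), Ppard (2.82 ± 0.649), Pparg (0.840 ± 0.230) and Creb3l3 (0.357 ± 0.171; SD, n = 6). Neighbours from Ppargc1a to Plin2 and from Ppara to Angptl4 differed by less than their spread.

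The kidney profiles of the members were compared with those of all tested genes over the 24 kidneys, which share their 4 groups and their library quality. These correlations are a description. Angptl4 was closest to Slc25a34 (r = 0.91) and Pex11a (0.87), Plin2 to Ech1 (0.88) and Cpt2 (0.87), Cd36 to Ces2c and Ces1f (0.96 each), and Mogat1 to Cyp2e1 and Cyp4b1 (0.96 each). Rxra was closest to Chst7 (0.91) and Cndp1 (0.90), Ppard to Dmpk (0.78) and Olfm1 (0.73), Pparg to Mrap (0.78) and Car3 (0.77), Ppara to Fam168b (0.93) and Rbm33 (0.92), and Ppargc1a to Cnot6l and Tjp1 (0.91 each). After removal of group means, r for the same pairs in the same order was 0.52 each for Mogat1 and 0.67 and 0.49 for Cd36. It was 0.52 and 0.56 for Rxra, 0.77 and 0.63 for Angptl4, and 0.83 and 0.78 for Plin2. For Pparg it was 0.76 each, for Ppard 0.80 and 0.79, for Ppara 0.95 and 0.92, and for Ppargc1a 0.91 each.

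RefSeq promoter windows (the 250 bases before a start, GRCm38.p6) were found for 9 of the 10 genes, in 13 windows. Angptl4 had no window and was not searched. The 13 windows were searched on both strands for the half-site AGGTCA repeated after 1 base, AGGTCANAGGTCA. No member window matched with up to 1 mismatch in 12 bases, where 0.484% of all 32851 promoters did. With up to 2 mismatches 5 windows matched (Rxra, Plin2, Cd36, Creb3l3 and Mogat1), against 3.24% of all promoters, and with up to 3 the same 5 genes matched, against 21.3%. The tolerance of 2 was picked after all of these had been seen, so the matches are no more than a description. The windows of Plin2 (chr4:86670060-86670309, minus strand) and Cd36 (chr5:17835897-17836146, minus strand) are shown because these genes were called in males and their windows hold at most 1 base of an annotated exon. Capitals mark the match, which lies on the opposite strand in both. The Cd36 start was not found in a GENCODE transcript.
Plin2: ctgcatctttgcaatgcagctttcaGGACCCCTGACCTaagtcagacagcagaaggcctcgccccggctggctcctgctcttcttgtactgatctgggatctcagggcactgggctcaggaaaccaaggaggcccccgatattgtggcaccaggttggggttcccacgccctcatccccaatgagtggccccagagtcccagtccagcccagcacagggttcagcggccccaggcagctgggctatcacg
Cd36: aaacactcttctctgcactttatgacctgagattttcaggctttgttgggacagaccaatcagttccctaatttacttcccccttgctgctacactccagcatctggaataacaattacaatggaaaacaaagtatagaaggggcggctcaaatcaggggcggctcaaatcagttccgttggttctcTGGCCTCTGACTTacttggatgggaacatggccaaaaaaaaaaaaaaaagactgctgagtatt

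The other genes of the pathway, 88 by list of which 86 were tested, gave 27 higher and 6 lower in males (edgeR adjusted p under 0.05). Over all tested genes 4.14% were higher and 4.9% lower. In females 16 pathway genes were higher, beside 0.391% of all tested genes, and none was lower. These shares also stand beside the counts by role below. The list was chosen with earlier results of these data known, so its counts are a description. At an unadjusted p under 0.05 in females, 27 pathway genes were higher and 3 lower, where 1083 of the 16092 tested genes passed in either direction. Neither limma-voom nor DESeq2 called a lower pathway gene in females. The median log2 fold change of the pathway genes was 0.22 in males and 0.07 in females, beside 0.01 and 0.00 over all tested genes.

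Of the 33 genes called in males, 29 were lipid targets of the receptors, mostly of fatty acid oxidation. Of 14 mitochondrial genes, 8 were higher and 1 lower in males and 4 were higher in females. Ucp2, a mitochondrial carrier, rose in males (log2 fold change 1.28, SE 0.14, edgeR adjusted p = 5.93e-07) and in females (0.85, adjusted p = 0.000177). Pdk4, which restrains glucose oxidation, rose in males (2.15, adjusted p = 0.000343), a call lost without the 5 hepatocyte-rich kidneys (1.57, adjusted p = 0.147). In females Pdk4 was 35.7 CPM in Ctrlf and 74.2 in cKOf (1.05, adjusted p = 0.102), which passed in 6 alternatives, among them limma-voom (1.23, adjusted p = 0.0245), and the sexes' difference did not pass (adjusted p = 0.338). That difference passed without Ctrlm 6 (1.66, adjusted p = 0.0218). Acaa2, a thiolase, rose in both sexes (0.82 and 0.57), with the male call lost without the 5 hepatocyte-rich kidneys (adjusted p = 0.0606).

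Of 8 peroxisomal genes, 5 were higher in each sex. Acot3, an acyl-CoA thioesterase, rose by a log2 fold change of 2.00 in males (edgeR adjusted p = 3.25e-09) and 0.96 in females (adjusted p = 9.28e-05), and these changes differed (difference 1.03, adjusted p = 0.00563), except without the 5 hepatocyte-rich kidneys (0.74, adjusted p = 0.143). Acaa1b, a peroxisomal thiolase, rose in males (1.23) and in females (1.14), and Ehhadh, the bifunctional enzyme, by 0.75 and 0.54. Acot4 rose by 0.68 and 0.47, with the male call lost without the 5 hepatocyte-rich kidneys (adjusted p = 0.0610) and the female call with adjustment within each sex (adjusted p = 0.0883).

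Of 6 omega-hydroxylases (Cyp4a family), 5 were higher in males and 4 in females. Cyp4a14 was 5.74 to 217 CPM in Ctrlm (median 19.7), 939 to 1276 in cKOm (median 1069.8), 279 to 431 in Ctrlf (median 306) and 836 to 1116 in cKOf (median 963). In each sex every knockout lay above every control. The rise was called in males (log2 fold change 4.33, SE 0.55, edgeR adjusted p = 5.52e-06) and was 5.57 without Ctrlm 6, the kidney at 217 CPM, and 3.34 without the 5 hepatocyte-rich kidneys. The female value of 1.55 did not pass (adjusted p = 0.0674) but did so in 6 of 37 alternatives, among them limma-voom (1.56, adjusted p = 0.0140) and each sex fitted alone (1.54, adjusted p = 1.22e-06). The difference of 2.78 was called (adjusted p = 0.0268), but not with the hepatocyte covariate (2.41, adjusted p = 0.0638), the long-transcript covariate (2.59, adjusted p = 0.0530) or without the 5 hepatocyte-rich kidneys (adjusted p = 0.235). Without Ctrlm 6 it was 4.03. Cyp4a10 rose in both sexes (1.55 and 1.09), as did Cyp4a12b (2.13 and 2.71). Cyp4a12a rose in females (1.94, adjusted p = 0.00426) with a value of -0.55 in males (adjusted p = 0.436), from means of 1.37 CPM in Ctrlf and 5.26 in cKOf. Limma-voom called neither the female rise (adjusted p = 0.119) nor the sexes' difference (-2.41, adjusted p = 0.125), which was also lost without the 3 kidneys with few long transcripts (-2.04, adjusted p = 0.0558). These paralogs, like the Acot genes, are similar in sequence, so reads that match several of them could have been left out or misassigned.

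Of 10 genes listed under uptake and activation, 5 were higher and 2 lower in males and 3 higher in females. That role also holds Acot1 and Acot2, which are acyl-CoA thioesterases and do not activate fatty acids. Acot1 rose in both sexes (1.30 and 1.06), as did Acot2 (1.48 and 0.61), whose female call was lost with adjustment within each sex (adjusted p = 0.0652) and without the 3 kidneys with few long transcripts (adjusted p = 0.0541). Acsl1, which activates long-chain fatty acids, rose in males (1.27, edgeR adjusted p = 2.15e-07) with 0.30 in females (adjusted p = 0.228), and the difference was called (0.97, adjusted p = 0.00231), except without the 5 hepatocyte-rich kidneys (0.74, adjusted p = 0.0899). Lpl, the lipase that Angptl4 inhibits, fell in males (-0.95, SE 0.20, adjusted p = 0.00337), and in females it was -0.34 (adjusted p = 0.441).

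Of 8 droplet and lipolysis genes none was called by edgeR in either sex, at median log2 fold changes of 0.39 in males and -0.17 in females. At an unadjusted p under 0.05 there were 0 in males and 2 in females (both higher), and DESeq2 called 1 of them. Of all 16092 tested genes, 4039 in males and 1083 in females passed at that level. Of 9 lipoprotein and synthesis genes, 1 was higher and 2 lower in males and none was called in females, where 0 had an unadjusted p under 0.05. Scd1, a desaturase, rose in males (1.12, edgeR adjusted p = 0.0181), a call lost in 5 of 38 alternatives, among them without Ctrlm 1 (1.01, adjusted p = 0.0535), without cKOm 3 (0.91, adjusted p = 0.0706) and with the hepatocyte covariate (0.93, adjusted p = 0.187). Me1, malic enzyme, fell in males (-0.73, adjusted p = 8.63e-07), with a called difference of Me1 between the sexes (-0.74, adjusted p = 0.000305). Apoa2 fell in males (-1.91, adjusted p = 0.0125), and it is also one of the 12 hepatocyte markers. The value was -0.37 with the hepatocyte covariate (adjusted p = 0.730) and -0.83 without the 5 hepatocyte-rich kidneys (adjusted p = 0.426).

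Of 10 coactivators, Crebbp alone was called, higher in males (log2 fold change 0.41, edgeR adjusted p = 0.0435, lost in 26 of 38 alternatives), and 5 were higher in males at an unadjusted p under 0.05. At that level 4039 of the 16092 tested genes passed in males and 1083 in females, in either direction. The kidney with few long transcripts was the lowest of its group for 9 of the 10 coactivators in Ctrlm, 6 in Ctrlf and 10 in cKOf, Crebbp among them each time. With the long-transcript index as a covariate Crebbp was 0.26 (adjusted p = 0.103), and without those 3 kidneys it was 0.33 (adjusted p = 0.0150). Of 6 corepressors none was called, with 3 higher in males at an unadjusted p under 0.05. In females no coregulator was called, with 1 coactivator lower at that level. Of 13 relatives of the members, 2 were higher and 1 lower in males, among them Plin3 (0.32, edgeR adjusted p = 0.00363) and Mogat2 (-0.72, adjusted p = 0.0386), and none was called in females, with 2 lower at an unadjusted p under 0.05. The Mogat2 call was lost in 9 of 38 alternatives, among them without Ctrlm 2 or 3 or cKOm 2, 4 or 5 (-0.70 to -0.57), and the value was -0.31 without the 5 hepatocyte-rich kidneys (adjusted p = 0.659), where Plin3 was not called either (0.31, adjusted p = 0.159). Rxrb (-0.04 in males) and Rxrg (1.00 in males, adjusted p = 0.409, at 0.579 CPM or less on average) were not called.

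**Figure D4:**
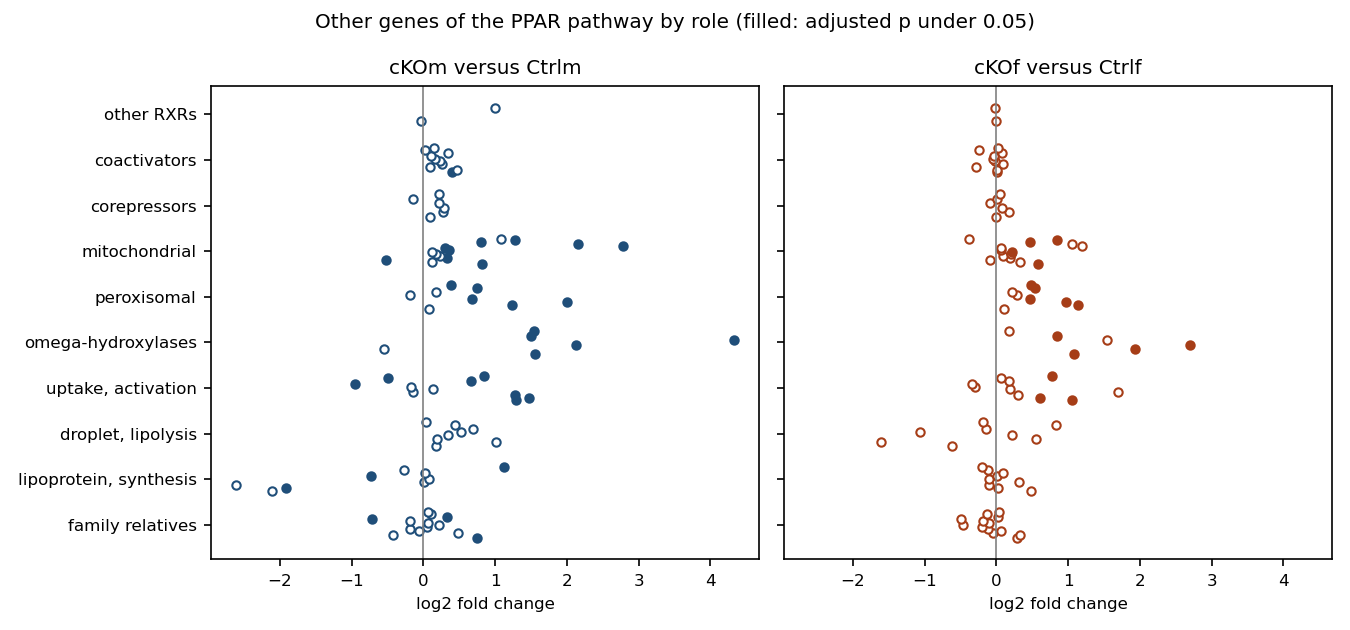
Log2 fold change of the other pathway genes by role in males (left) and females (right), 1 dot per gene, filled where the edgeR adjusted p was under 0.05. Filled dots are most frequent among mitochondrial, peroxisomal, omega-hydroxylase, and uptake and activation genes, up to 4.33 (Cyp4a14) in males. Droplet and lipolysis genes hold no filled dot.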

How the data were processed

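The authors deposited, for each of 24 kidneys, whole counts of reads per gene without normalization. Per the labels, reads from stranded libraries were trimmed with cutadapt 1.8, aligned to GRCm38 with STAR 2.5.3a and counted with HTSeq 0.9.1. The 5 closing lines of reads not on genes, 34.0% to 41.5% of those listed, were left out. Of 55335 gene IDs 55154 were named by GENCODE M21. Counts were tested with edgeR 4.0.16 (quasi-likelihood, TMM) in R 4.3.3, in 1 model of 4 groups over the 16092 genes reaching 1 CPM in 1 kidney or more. Benjamini-Hochberg adjustment covered both sexes' tests jointly and each other contrast alone, at a threshold of 0.05. Log2 CPM had a prior count of 2. Exact permutation tests used 924 arrangements. Intervals are 95%. Depth gave a floor of 3 counts, for counting error only. Each kidney is labelled as a separate replicate of its group, and p-values measure the spread between these kidneys.

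Besides all members and Pex5, up to 4 called genes with the largest change were named for each role, all genes of roles under 3 genes, and the 2 genes with the most similar profile for members with a mean of at least 1 CPM. Some genes that meet this rule are counted but not reported here by name. Members, lists and the alternatives were chosen with earlier results of these data known. Alternatives were limma-voom (limma 3.58.1), DESeq2 1.42.0, other filters and scalings, sexes fitted or adjusted alone, a replicate block, marker scores as covariates, each kidney left out, and 4 added after seeing the data. The procedure was tested on simulated data.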

Additional observations from a re-analysis of the deposited data

Results flagged for a closer look

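In 5 of 40 groups of 6 kidneys, 1 kidney lay far from the others by Dixon's criterion, which chance meets in about 1 in 20 groups. Ppard was 15.5 CPM in cKOm 2, against 19.1 to 20.3 in the other cKOm kidneys. Pparg was 4.94 CPM in cKOm 1 (others 0.714 to 2.10) and 4.07 CPM in Ctrlf 6 (others 1.21 to 1.77), the 2 kidneys highest in adipocyte markers. Cd36 was 692 CPM in Ctrlm 3 (others 333 to 456), and Creb3l3 was 1.77 CPM in cKOf 6 (others 0.479 to 0.934).

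The change with deletion differed between the sexes past the edgeR threshold for 7 named genes. The male minus female log2 fold change was -0.95 for Mogat1, 1.03 for Acot3, 2.78 for Cyp4a14, -2.49 for Cyp4a12a, 0.87 for Acot2, 0.97 for Acsl1 and -0.74 for Me1. Of these, Acot3, Acot2, Acsl1 and Cyp4a14 were not called without the 5 kidneys of high hepatocyte markers, and Cyp4a12a was not called by limma-voom.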

How the results depend on the processing

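All settings were run on the members, Pex5 and the named pathway genes. Over 4421 gene results under alternatives, 4172 kept direction and call, 146 lost the call, 29 gained it and 74 changed sign, none of the last with a call in either fit. Where calls or signs changed, the cause was not tested.

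The count of members called in males (4) was 1 with the hepatocyte score as a covariate and 0 with the 5 kidneys of high hepatocyte markers left out, which left 2 Ctrlm kidneys. Calls over all tested genes in males were 1456 in the main fit, 752 with that covariate and 599 without those 5 kidneys. The member count in females (3) was 1 with limma-voom, 0 with adjustment within each sex and 0 without the 3 kidneys with few long transcripts. It was 1 without the 5 hepatocyte-rich kidneys and 1 without the 2 Ctrlf kidneys high in interferon or adipocyte markers. Calls over all tested genes in females were 137 in the main fit and, in the same order, 133, 43, 173, 83 and 115. For the sexes' difference (1) the member count was 2 with DESeq2 (574 of all tested genes, 372 in the main fit). For Ctrlf against Ctrlm (4) the member count was 2 (1570 of all tested genes, 2707 in the main fit) without the 5 hepatocyte-rich kidneys. The pathway genes called in males (33) were 20 without those 5. With each kidney left out in turn, member counts were 2 to 4 in males, 1 to 3 in females, 1 for the sexes' difference and 4 to 5 for Ctrlf against Ctrlm, and pathway counts 29 to 35 in males and 15 to 20 in females. Over all tested genes, calls in these fits were 1152 to 1726 in males and 108 to 173 in females. They were 282 to 476 for the sexes' difference and 2333 to 2936 for Ctrlf against Ctrlm. The male member count was 2 without Ctrlm 2 or 5 or cKOm 1, 2, 3 or 5, and the female count 1 without Ctrlf 1 or 4, cKOf 2 or 6 or cKOm 5.

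Log2 fold changes that changed sign, uncalled in both fits, were these. With the hepatocyte covariate Ppard was 0.049 for Ctrlf against Ctrlm, Creb3l3 0.39 and Rxrb 0.070 in males, and the sexes' difference -0.047 for Angptl4 and 0.061 for Rxrb. Without the 5 hepatocyte-rich kidneys Creb3l3 was 0.19 in males, Rxrb -0.0036 in females, and the sexes' difference 0.0063 for Rxra, -0.34 for Angptl4, -0.12 for Acaa1b and 0.18 for Mogat2. With the long-transcript covariate Rxrb was 0.024 in males and -0.018 in females, Apoa2 -0.13 in females, and the sexes' difference 0.21 for Pparg, -0.053 for Ppargc1a and 0.042 for Rxrb. Without the 3 kidneys with few long transcripts Rxrb was -0.023, Rxrg 0.018, Apoa2 -0.21 and Plin3 -0.025 in females, and the sexes' difference of Pparg 0.16. Without the 2 Ctrlf kidneys Pparg was 0.13, Rxrg 0.27 and Apoa2 -0.047 in females. In females limma-voom gave Rxrb -0.017, Crebbp -0.013 and Apoa2 -0.071, the adipocyte covariate Rxrb -0.020 and Crebbp -0.013, and every gene with a count Rxrb -0.0075 and Me1 -0.0014. Rxrb in females was also -0.0022 with DESeq2, -0.0019 with RLE normalization, -0.0012 with the filter of 6 kidneys, -0.0034 with each sex alone and -0.0051 with the replicate block. With each kidney left out, female values ran from -0.21 to 0.073 for Ppara, -0.34 to 0.15 for Pparg, -0.073 to 0.11 for Ppargc1a, -0.051 to 0.085 for Rxrb, -0.24 to 0.30 for Rxrg, -0.061 to 0.12 for Crebbp, -0.35 to 0.17 for Apoa2, -0.024 to 0.044 for Me1 and -0.0064 to 0.051 for Plin3, and sexes' differences from -0.65 to 0.018 for Pparg, -0.22 to 0.35 for Angptl4 and -0.12 to 0.015 for Rxrb.

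The r of deviations between same-numbered kidneys was -0.01 to 0.03 in males and -0.31 to 0.14 in females. Differently numbered kidneys were not compared, so these values do not settle whether the numbers pair kidneys. The replicate block gave 4 members called in males, 2 in females and 1 for the sexes' difference, and 31 pathway genes in males and 18 in females. Over all tested genes that block gave 1268 calls in males, 110 in females and 271 for the sexes' difference. Depth limits Creb3l3 most, at 1 to 39 counts per kidney.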
